A study of Homo sapiens with 9 samples.

Results

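The 35 genes described here encode proteins of homologous recombination and of the Fanconi anemia pathway, and were chosen by name from the 58735 genes counted in each library. RNA was sequenced from Huh-7, a line of human hepatoma cells, and from CRISPR/Cas9 clones of the same line that lack APOB (Ako-3) or MTTP (Mko-3), the genes of apolipoprotein B and of the transfer protein that loads it with lipid. Each group had 3 libraries, labelled as biological replicates, and all cells had been kept overnight without serum at high confluence before RNA isolation. Each knockout was a single clone picked after limiting dilution, and both clones were compared with the same 3 control libraries, which came from Huh-7 cells labelled WT, so that the effect of a gene's loss and a property of the clone cannot be told apart.

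Homologous recombination repairs a broken chromosome by copying the sister chromatid, and therefore works mainly after DNA has been replicated. Broken ends are trimmed to single strands, BRCA1, PALB2, BRCA2 and a group of paralogs that includes XRCC2 and XRCC3 prepare the strands to pair with the sister, and the joined molecules are then resolved by helicases and nucleases. The Fanconi anemia pathway opens crosslinked DNA ahead of this step: a core complex of FANC proteins ubiquitylates the FANCD2-FANCI pair, and the kinases ATM and ATR signal the damage.

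In both knockout clones most of these genes were measured above control cells, by modest amounts. In Ako-3 cells 15 of the 35 rose and 2 fell at an adjusted p of at most 0.05 (edgeR quasi-likelihood test with Benjamini-Hochberg adjustment over all genes tested), where 25.5% of the 15787 genes tested rose and 24.4% fell. In Mko-3 cells 20 rose and 3 fell, against 26.9% and 27.1% of 15745 genes. The median log2 fold change of the 35 genes was 0.28 in Ako-3 and 0.33 in Mko-3, and that of all genes tested was -0.01 in both. FANCD2, FANCI, BLM and FANCA had the largest rises in Ako-3, and FANCA, FANCB, RAD54L and BLM in Mko-3, while ATM, the kinase that signals double-strand breaks, and MUS81, a nuclease of joined DNA molecules, fell in both clones.

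None of the 35 passed the stricter rule of a log2 fold change of at least 1 in either direction together with the adjusted p, in any comparison, by edgeR, DESeq2 or limma. The largest log2 fold change was 0.79 in Ako-3 and 0.94 in Mko-3. At an unadjusted p under 0.05 edgeR counted 19 and 25 of the 35, in either direction, and the share of all genes at that p was not counted. At the adjusted p 25.5% of all genes already rose and 24.4% fell in Ako-3, and 26.9% and 27.1% in Mko-3. By the stricter rule 3.52% of all genes tested rose and 5.0% fell in Ako-3, and 3.82% rose and 7.22% fell in Mko-3. Every library of Ako-3 lay above every control library for 16 of the 35 genes and below for 2, where 29.7% and 28.0% of all genes did so. In Mko-3 these counts were 18 and 2, where 30.9% and 29.8% of all genes did so.

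**Figure D1:**
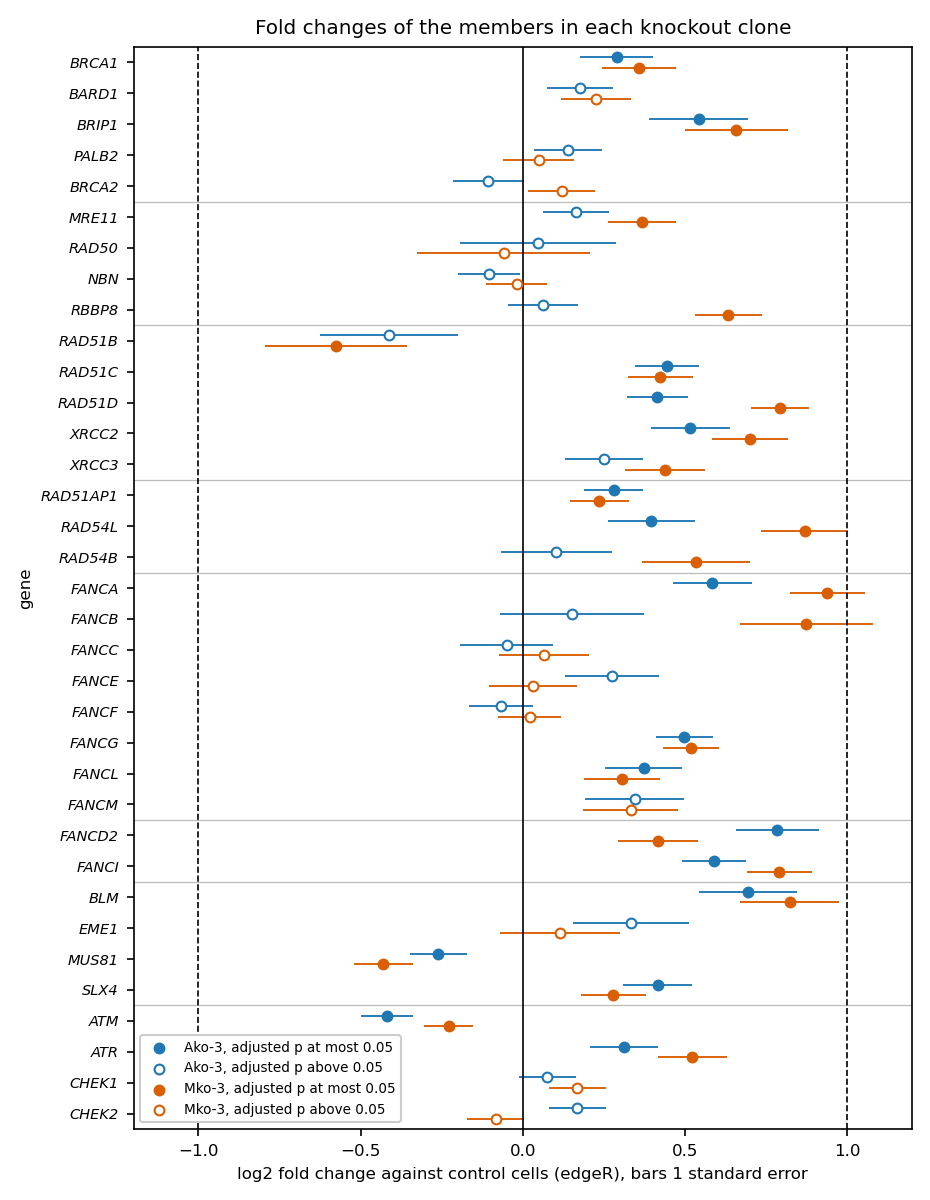
The log2 fold change against control cells is plotted for each of the 35 genes, grouped by role, with bars of 1 standard error, blue for Ako-3 and orange for Mko-3, and filled points for an adjusted p of at most 0.05. All points lie between the dashed lines at -1 and 1, 15 filled blue and 20 filled orange points lie right of 0, and ATM and MUS81 lie left of 0 in both clones.

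The 9 libraries held 14638727 to 20179760 counts, of which the 35 genes took 14398 to 20143. Mitochondrial genes took 5.52% to 6.17% of counts in control, 7.06% to 7.40% in Ako-3 and 5.75% to 5.82% in Mko-3 libraries, and the part of this difference in the results was not tested. Control replicate 2 stood apart from the other control libraries: it was the highest of the 3 for 27 of the 35 genes and the lowest for 2, and the genes took 999 CPM there, as a share of all counts before scaling, against 806 and 858 in control replicates 1 and 3. Ako-3 libraries had 998 to 1038 and Mko-3 libraries 1070 to 1097 CPM. Without control replicate 2 the genes that rose numbered 20 in Ako-3 and 24 in Mko-3, where 26.2% and 28.5% of all genes tested rose. EME1, FANCM and CHEK1 came to pass in both clones there, MRE11 and XRCC3 in Ako-3 and BARD1 in Mko-3. The medians of the 35 were then 0.36 and 0.47. FANCA, RAD54L, BLM and FANCB passed the stricter rule in Mko-3 in that fit, where 4.59% of all genes tested rose by it. With control replicate 1 left out instead, 10 and 17 genes rose, where 23.3% and 25.1% of all genes tested rose, and the medians were 0.15 and 0.21. Without control replicate 3 the genes that rose numbered 10 and 16, where 22.2% and 23.8% of all genes tested rose.

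As a check of the labels, the log2 fold change of APOB was -1.36 in Ako-3 and that of MTTP was -2.88 in Mko-3. The 10 hepatocyte and hepatoma markers examined, among them ALB and AFP, all averaged above 1 FPKM in every group, and summed to 5147 to 5313 FPKM in control, 6115 to 6395 in Ako-3 and 5077 to 5317 in Mko-3 libraries, FPKM being the deposited fragment counts scaled by gene length and library size. Of 5 leukocyte markers, LYZ alone exceeded this level, and the list summed to 148 to 160 FPKM in control, 181 to 198 in Ako-3 and 184 to 198 in Mko-3 libraries, while PTPRC had at most 2 counts in a library and CD68 had 0. Fibroblast markers summed to at most 1.92 FPKM in any library. Endothelial markers summed to 9.86 to 11.3 FPKM in control, 13.5 to 14.6 in Ako-3 and 7.30 to 7.97 in Mko-3. Over the 9 libraries PECAM1 stood at 6.15 to 13.9 FPKM and CDH5 at 0.537 to 1.19. VWF had at most 5 counts in a library, and KDR and TEK had 0 in all 9. The part of these differences in the results was not tested. In bulk libraries fewer cells of a type or phase and less RNA per cell cannot be told apart.

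Per length, the 35 genes were low to moderate in control cells, with means from 0.231 FPKM for RAD50 to 14.8 for RAD51AP1 and a median of 2.99. The mean exceeded 1 FPKM for 29 of them in control, 30 in Ako-3 and 32 in Mko-3 cells. RAD51AP1, which stimulates strand pairing (14.8 ± 2.2 FPKM, SD, n = 3), and FANCG, a core complex subunit (14.2 ± 2.0), led the order and did not differ beyond their spread, and FANCI (8.24 ± 1.59) and FANCD2 (8.23 ± 1.78) followed at like levels. At the lower end stood RAD51B (0.554 ± 0.132 FPKM), FANCC (0.750 ± 0.112) and FANCB (0.803 ± 0.166), of which FANCC and FANCB lay within each other's spread and RAD51B lay below both. RAD50 had only 26 to 45 counts per library, and 99.7% of its span is shared with AC116366.3, a gene annotated on the same strand that had 0 to 4 counts. How reads in shared exons were counted is not given, so the level of RAD50 is uncertain and is not read as low expression.

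**Figure D2:**
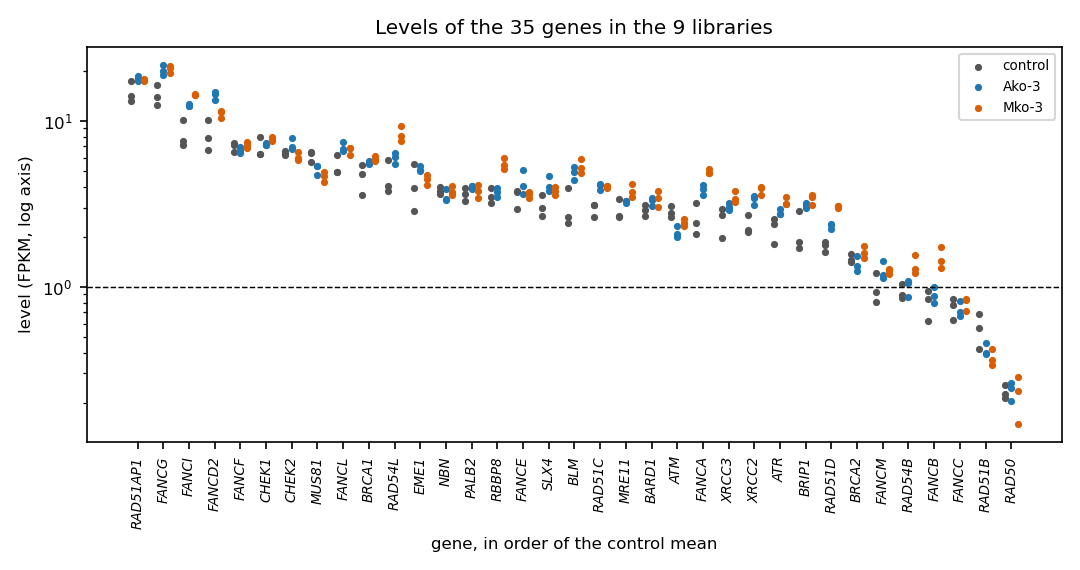
The level of each gene in FPKM is plotted on a log axis for the 9 libraries, in the order of the control mean, with grey points for control, blue for Ako-3 and orange for Mko-3. Points run from RAD51AP1 and FANCG at the left, the only genes whose control mean exceeds 14 FPKM, to RAD50 at the right, and the dashed line marks 1 FPKM.

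To show the DNA upstream of the genes that moved most, the 250 bases before the RefSeq start (GRCh38.p14) are given for FANCA, BLM and RAD54L, the first, the second and the fourth by mean log2 fold change over both clones among the genes that passed in both, and for MUS81 and ATM, the most negative. FANCI was the third. Letters are written 5′ to 3′ on the gene's strand, and capitals mark matches on either strand to the E2F-type motifs TTTCCCGC, TTTGGCGC, TTTCGCGC and TTTGCCGC, to the CHR-type motifs TTTGAA and TTCGAA, or to CCAAT, which are known from promoters of genes of the cell cycle.
FANCA, chr16:89816648-89816897, minus strand: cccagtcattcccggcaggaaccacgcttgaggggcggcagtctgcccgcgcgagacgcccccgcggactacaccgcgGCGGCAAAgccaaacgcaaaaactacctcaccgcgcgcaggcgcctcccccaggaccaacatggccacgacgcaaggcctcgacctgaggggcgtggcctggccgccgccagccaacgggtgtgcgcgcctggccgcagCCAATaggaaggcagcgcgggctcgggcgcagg
BLM, chr15:90717096-90717345, plus strand: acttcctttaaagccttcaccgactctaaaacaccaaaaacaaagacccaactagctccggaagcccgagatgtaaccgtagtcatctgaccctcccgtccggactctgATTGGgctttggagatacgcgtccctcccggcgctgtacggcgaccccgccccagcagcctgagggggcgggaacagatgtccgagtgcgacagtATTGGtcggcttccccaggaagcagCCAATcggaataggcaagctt
RAD54L, chr1:46247438-46247687, plus strand: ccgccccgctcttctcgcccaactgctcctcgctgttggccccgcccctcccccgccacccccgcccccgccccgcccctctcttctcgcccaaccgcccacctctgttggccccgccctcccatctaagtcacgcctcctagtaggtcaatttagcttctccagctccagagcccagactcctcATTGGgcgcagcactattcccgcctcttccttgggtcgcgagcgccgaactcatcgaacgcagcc
MUS81, chr11:65860183-65860432, plus strand: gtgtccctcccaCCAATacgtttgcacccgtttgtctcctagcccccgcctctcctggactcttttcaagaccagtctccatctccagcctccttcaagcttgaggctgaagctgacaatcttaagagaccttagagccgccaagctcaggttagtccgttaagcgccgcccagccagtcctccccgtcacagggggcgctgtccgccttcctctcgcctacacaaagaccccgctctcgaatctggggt
ATM, chr11:108222817-108223066, plus strand: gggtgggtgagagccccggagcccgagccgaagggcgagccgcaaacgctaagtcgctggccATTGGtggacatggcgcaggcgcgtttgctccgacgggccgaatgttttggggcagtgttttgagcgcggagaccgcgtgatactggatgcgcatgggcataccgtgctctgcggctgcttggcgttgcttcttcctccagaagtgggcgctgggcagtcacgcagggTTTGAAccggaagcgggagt
FANCA held 1 E2F-type match, TTTGCCGC on the opposite strand, 165 to 172 bases before the start, and 1 CCAAT 29 to 33 bases before it. BLM held 3 matches to CCAAT, and RAD54L and MUS81 held 1 each. ATM held TTTGAA 15 to 20 bases before its start and 1 CCAAT. No matches to different motifs overlapped in these sequences.

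The same window was available for 32 of the 35 genes. An E2F-type match was found in 2 of the 32, FANCA and FANCC, and in 2.79% of the 35116 promoters in the RefSeq table. CHR-type matches were found in 3 of the 32, BRIP1, FANCC and ATM, and in 14.3% of all promoters, and CCAAT in 14 of the 32 (43.8%) and in 32.0% of all. Of the 14 genes with a window that rose in both clones, 1 held an E2F-type and 5 a CCAAT match, and of the other 18 genes 1 and 9 did. A match describes the letters in this window alone.

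Of the 5 genes of the BRCA1-PALB2-BRCA2 axis, which acts on resected ends, BRIP1 and BRCA1 rose in both clones and none fell. BRIP1 stood at 1.71, 2.87 and 1.85 FPKM in control replicates 1 to 3, at 3.11, 3.21 and 2.99 in Ako-3 and at 3.59, 3.45 and 3.11 in Mko-3. BRIP1 is the helicase that binds the BRCT repeats of BRCA1, and all libraries of both clones lay above all control libraries. Its log2 fold change was 0.54 ± 0.15 (adjusted p = 0.0087) in Ako-3 and 0.66 ± 0.16 (adjusted p = 0.0035) in Mko-3 with edgeR and Benjamini-Hochberg adjustment, and the call in Ako-3 was lost without control replicate 3. BRCA1 stood at 3.59, 5.42 and 4.76 FPKM in control replicates 1 to 3, at 5.57, 5.74 and 5.50 in Ako-3 and at 6.16, 5.86 and 5.72 in Mko-3. The libraries of both clones lay above the control libraries by a smaller margin for BRCA1, the ubiquitin ligase and scaffold of this step. By edgeR its log2 fold change was 0.29 ± 0.11 (adjusted p = 0.046) in Ako-3 and 0.36 ± 0.11 (adjusted p = 0.016) in Mko-3 with Benjamini-Hochberg adjustment, and without control replicate 1 these were 0.14 and 0.21. The call in Ako-3 was lost by limma and when any 1 library other than control replicate 2 was left out, and in Mko-3 without Mko-3 replicate 1. NBR2 and AC060780.1, genes that share 22.3% and 17.4% of the span of BRCA1, had 204 to 367 and 142 to 358 counts.

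The log2 fold changes of BARD1, which forms the ligase with BRCA1, of PALB2, which links BRCA1 to BRCA2, and of BRCA2, which prepares resected strands for pairing, ran from -0.11 to 0.18 in Ako-3 and from 0.05 to 0.22 in Mko-3 and did not pass. Control BRCA2 averaged 1.48 ± 0.09 FPKM (SD, n = 3), Ako-3 1.38 ± 0.15 and Mko-3 1.61 ± 0.14, so the groups overlapped. No gene of this axis passed between the clones.

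Of the 4 genes of end resection none passed in Ako-3, and RBBP8 and MRE11 rose in Mko-3. RBBP8 stood at 3.21, 3.95 and 3.45 FPKM in control replicates 1 to 3, at 3.91, 3.71 and 3.46 in Ako-3 and at 5.42, 5.99 and 5.13 in Mko-3. RBBP8 encodes CtIP, which starts the trimming of broken ends with MRE11, and its Mko-3 libraries lay above all 6 others, while Ako-3 and control libraries overlapped. The log2 fold change was 0.63 ± 0.10 (adjusted p = 2.2e-05) in Mko-3 against 0.06 ± 0.11 (adjusted p = 0.66) in Ako-3, and the difference between the clones, fitted on its own by edgeR with Benjamini-Hochberg adjustment, was 0.57 ± 0.09 (adjusted p = 4.9e-08). MRE11 stood at 2.64, 3.40 and 2.68 FPKM in control replicates 1 to 3, at 3.26, 3.21 and 3.29 in Ako-3 and at 4.13, 3.46 and 3.72 in Mko-3. MRE11, the nuclease of the MRN complex, rose by 0.37 ± 0.11 (adjusted p = 0.0057) on the log2 scale in Mko-3 by edgeR with Benjamini-Hochberg adjustment. Its difference between the clones, 0.21, was lost by DESeq2, by limma, without the filter on low counts, in the fit of all 9 libraries and in 5 of the 6 fits that left out 1 library and was 0.13 without Mko-3 replicate 1.

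NBN and RAD50, the partners of MRE11 in the MRN complex, did not pass. NBN averaged 3.78 ± 0.20 FPKM in control, 3.53 ± 0.30 in Ako-3 and 3.76 ± 0.24 in Mko-3 cells (SD, n = 3). The standard error of RAD50 was 0.24 in Ako-3 and 0.27 in Mko-3 on the log2 scale, so that changes of the size seen in MRE11 could not be resolved for it.

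Among the 5 paralogs RAD51B, RAD51C, RAD51D, XRCC2 and XRCC3, which assist strand pairing on single-stranded DNA, RAD51C, RAD51D and XRCC2 rose in both clones. RAD51D stood at 1.61, 1.85 and 1.77 FPKM in control replicates 1 to 3, at 2.40, 2.24 and 2.35 in Ako-3 and at 2.99, 3.07 and 3.07 in Mko-3. The 3 groups of RAD51D did not overlap, in the order control, Ako-3, Mko-3. By edgeR with Benjamini-Hochberg adjustment its log2 fold change was 0.42 ± 0.09 (adjusted p = 9.7e-04) in Ako-3, 0.79 ± 0.09 (adjusted p = 2.1e-07) in Mko-3 and 0.38 ± 0.08 (adjusted p = 2.3e-05) between the clones. The annotated read-through gene RAD51L3-RFFL shares 99.9% of its span on the same strand and had 0 counts, and how reads in shared exons were counted is not given. XRCC2 stood at 2.19, 2.70 and 2.14 FPKM in control replicates 1 to 3, at 3.54, 3.09 and 3.42 in Ako-3 and at 3.94, 3.55 and 3.99997 in Mko-3. XRCC2, which joins RAD51D in the BCDX2 complex, lay above control in every library of both clones. The log2 fold change was 0.52 ± 0.12 (adjusted p = 0.0014) in Ako-3 and 0.70 ± 0.12 (adjusted p = 3.1e-05) in Mko-3 by edgeR with Benjamini-Hochberg adjustment, and the difference between the clones did not pass (0.19 ± 0.10, adjusted p = 0.12).

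RAD51C, a member of both complexes that these paralogs form, averaged 2.96 ± 0.28 FPKM in control, 4.03 ± 0.17 in Ako-3 and 3.998 ± 0.072 in Mko-3 cells (SD, n = 3), with log2 fold changes of 0.45 and 0.42. XRCC3, its partner in one of them, rose in Mko-3 by 0.44 ± 0.12 (adjusted p = 0.0054) by edgeR with Benjamini-Hochberg adjustment, a value that was 0.28 without control replicate 3. In Ako-3 its log2 fold change was 0.25 and did not pass. KLC1, on the opposite strand, shares 93.0% of the span of XRCC3, and the libraries carried no strand mark. RAD51B had 57 to 96 counts in control and 39 to 56 in Mko-3 libraries. It fell by 0.58 on the log2 scale in Mko-3 (adjusted p = 0.032, edgeR with Benjamini-Hochberg adjustment), although the libraries of the groups overlapped, and the call was lost by DESeq2, by limma, without the filter on low counts and without control replicate 1, Mko-3 replicate 1 or Mko-3 replicate 3.

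All 3 motors and partners of strand exchange, RAD54L, RAD54B and RAD51AP1, rose in Mko-3, and RAD54L and RAD51AP1 rose in Ako-3. RAD54L stood at 4.06, 5.77 and 3.79 FPKM in control replicates 1 to 3, at 6.01, 5.47 and 6.41 in Ako-3 and at 8.14, 9.24 and 7.50 in Mko-3. RAD54L is the motor that drives strand exchange, and its Mko-3 libraries lay above all others, while 1 Ako-3 library lay within the control range. By edgeR with Benjamini-Hochberg adjustment the log2 fold change was 0.40 ± 0.13 (adjusted p = 0.019) in Ako-3, 0.87 ± 0.13 (adjusted p = 3.5e-05) in Mko-3 and 0.47 ± 0.09 (adjusted p = 6.3e-06) between the clones. The call in Ako-3 was lost by limma and without control replicate 1, control replicate 3 or Ako-3 replicate 3, and the value was 0.60 without control replicate 2. The genes within 5 Mb of RAD54L had a median log2 difference between the clones of 0.27, higher in Mko-3 for 70 of 87, and LRRC41 on the opposite strand shares 56.1% of its span. RAD54B stood at 0.891, 1.04 and 0.857 FPKM in control replicates 1 to 3, at 1.08, 1.05 and 0.863 in Ako-3 and at 1.21, 1.56 and 1.27 in Mko-3. RAD54B, its relative, passed in Mko-3 and not in Ako-3, at 104 to 147 counts per library, with 0.53 ± 0.17 (adjusted p = 0.01) by edgeR with Benjamini-Hochberg adjustment. The difference between the clones was 0.43 ± 0.16 (adjusted p = 0.023) by the same test. Both calls were lost without Mko-3 replicate 2, and that between the clones also without Ako-3 replicate 3, by DESeq2 and by limma. FSBP, annotated on the same strand over 62.8% of the span of RAD54B, had 44 to 106 counts.

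RAD51AP1, which had the highest control mean in FPKM, rose by 0.28 in Ako-3 and 0.24 in Mko-3 on the log2 scale. The Mko-3 value was 0.37 without control replicate 2, and the call was lost by DESeq2, by limma and in the 5 other fits that left out 1 library. In Ako-3 the call was lost without control replicate 1 or control replicate 3.

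Of the 8 genes of the Fanconi core complex, FANCA, FANCG and FANCL rose in both clones, FANCB rose in Mko-3, and none fell. FANCA stood at 2.08, 3.19 and 2.41 FPKM in control replicates 1 to 3, at 3.86, 3.54 and 4.08 in Ako-3 and at 5.10, 4.84 and 4.81 in Mko-3. FANCA, a scaffold subunit, had the largest log2 fold change of the 35 in Mko-3, and its 3 groups did not overlap, in the order control, Ako-3, Mko-3. By edgeR with Benjamini-Hochberg adjustment it was 0.58 ± 0.12 (adjusted p = 9.8e-04) in Ako-3, 0.94 ± 0.12 (adjusted p = 3.9e-06) in Mko-3 and 0.36 ± 0.07 (adjusted p = 1.0e-05) between the clones, and these calls held in every alternative. FANCG stood at 13.9, 16.3 and 12.4 FPKM in control replicates 1 to 3, at 18.8, 19.8 and 21.7 in Ako-3 and at 20.6, 19.5 and 21.4 in Mko-3. FANCG, which binds FANCA, lay above control in every library of both clones by similar amounts, at 0.50 ± 0.09 (adjusted p = 1.0e-04) in Ako-3 and 0.52 ± 0.09 (adjusted p = 2.8e-05) in Mko-3 on the log2 scale by edgeR with Benjamini-Hochberg adjustment. Between the clones its difference was 0.02 ± 0.06.

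FANCB, an X-linked subunit that binds the catalytic subunit, had 42 to 55 counts in control, 50 to 71 in Ako-3 and 82 to 96 in Mko-3 libraries. The Mko-3 libraries lay above all others. Its log2 fold change was 0.87 ± 0.20 (adjusted p = 0.0011) in Mko-3, 0.15 ± 0.22 (adjusted p = 0.6) in Ako-3 and 0.72 ± 0.19 (adjusted p = 1.0e-03) between the clones by edgeR with Benjamini-Hochberg adjustment. The 43 genes tested within 5 Mb of FANCB had a median log2 difference of 0.45 between the clones, higher in Mko-3 for 35, and the part of a change along this stretch of chromosome X was not tested. FANCL, the catalytic subunit of the complex, rose by 0.37 ± 0.12 (adjusted p = 0.012) in Ako-3 and 0.31 ± 0.12 (adjusted p = 0.033) in Mko-3 by edgeR with Benjamini-Hochberg adjustment. Each of these calls was lost without control replicate 1 or control replicate 3, that in Ako-3 also without Ako-3 replicate 2, and that in Mko-3 also without Mko-3 replicate 1 or Mko-3 replicate 2 and by DESeq2.

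FANCC, FANCE and FANCF, which bridge the complex to FANCD2, and FANCM, the translocase that anchors it to DNA, did not pass in any comparison with all libraries kept. Their log2 fold changes ran from -0.07 for FANCF to 0.34 for FANCM in Ako-3 and from 0.02 to 0.33 for the same genes in Mko-3. FANCE, at 0.28 in Ako-3, had 181 to 236 counts there against 145 to 192 in control libraries.

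Both genes of the ID2 complex, the ubiquitylated pair at the centre of the pathway, rose in both clones, but in opposite order. FANCD2 stood at 6.64, 10.1 and 7.89 FPKM in control replicates 1 to 3, at 14.5, 13.3 and 14.8 in Ako-3 and at 11.4, 10.4 and 11.3 in Mko-3. FANCD2 was highest in Ako-3, and its 3 groups did not overlap. By edgeR with Benjamini-Hochberg adjustment the log2 fold change was 0.79 ± 0.13 (adjusted p = 5.2e-04) in Ako-3, 0.42 ± 0.12 (adjusted p = 0.016) in Mko-3 and -0.37 ± 0.05 (adjusted p = 8.0e-09) between the clones, and the call in Mko-3 was lost without control replicate 3. FANCI stood at 7.11, 10.1 and 7.56 FPKM in control replicates 1 to 3, at 12.7, 12.3 and 12.2 in Ako-3 and at 14.3, 14.2 and 14.4 in Mko-3. FANCI was highest in Mko-3, with 0.59 ± 0.10 (adjusted p = 1.7e-04) in Ako-3, 0.79 ± 0.10 (adjusted p = 8.9e-06) in Mko-3 and 0.20 ± 0.05 (adjusted p = 5.4e-04) between the clones by edgeR with Benjamini-Hochberg adjustment. The last call was lost in a fit of all 9 libraries together. The 71 genes tested within 5 Mb of FANCD2 had a median log2 difference of -0.17 between the clones and were higher in Mko-3 for 13, while the 60 near FANCI had a median of 0.05. Against control, the 70 tested near FANCD2 had a median log2 fold change of 0.24 in Ako-3, above 0 for 49. In Mko-3 it was -0.05, above 0 for 34 of 70. The part of a change along this stretch of chromosome 3 was not tested. POLG, on the opposite strand, shares 16.5% of the span of FANCI and had 1432 to 1736 counts.

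The ratio of FANCI to FANCD2 within a library does not depend on library size. It was 1.07, 0.991 and 0.957 in the control libraries, 0.877, 0.927 and 0.826 in Ako-3 and 1.26, 1.36 and 1.28 in Mko-3, with means of 1.01 ± 0.06, 0.876 ± 0.051 and 1.30 ± 0.06 (SD, n = 3). The 3 groups did not overlap. The exact two-sided permutation test gave p = 0.1 in each comparison, the smallest that 3 libraries against 3 allow. Over the 27 tests of 9 subunit ratios, of which 10 reached this value, the smallest adjusted p was 0.27. Control replicate 2, the library with high levels of both genes, had a ratio between those of the other 2 control libraries. Of the other ratios, that of BRIP1 to BRCA1 averaged 0.465 ± 0.070 in control, 0.554 ± 0.009 in Ako-3 and 0.572 ± 0.024 in Mko-3, and that of EME1 to MUS81 0.663 ± 0.203, 0.997 ± 0.073 and 0.965 ± 0.130.

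**Figure D3:**
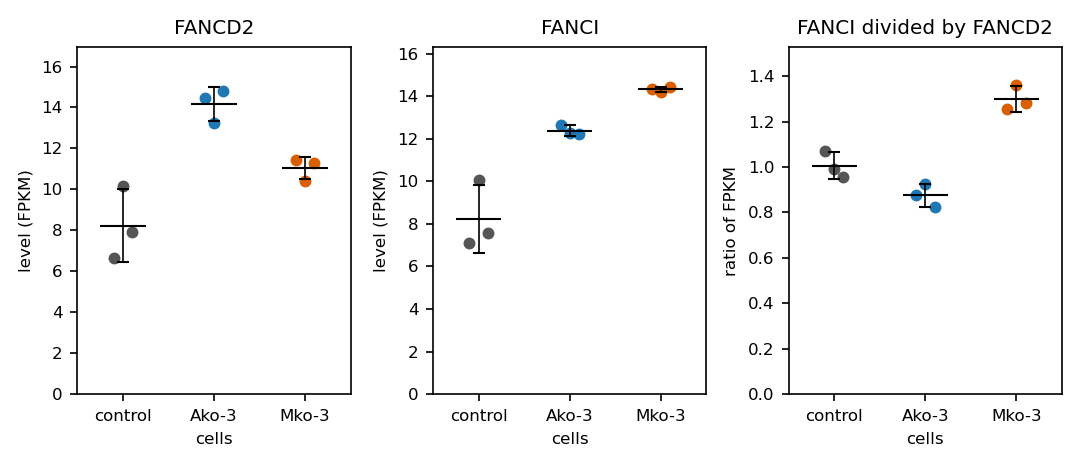
The levels of FANCD2 and FANCI in FPKM and the ratio of FANCI to FANCD2 are plotted for each library of control, Ako-3 and Mko-3 cells, with the mean as a horizontal line and 1 SD as the error bar (n = 3). FANCD2 is highest in Ako-3 and FANCI in Mko-3, and the ratio averages 1.01, 0.876 and 1.30 with no overlap among the groups.

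Of the 4 genes that process joined molecules, BLM and SLX4 rose in both clones, MUS81 fell in both and EME1 did not pass. BLM stood at 2.63, 3.93 and 2.42 FPKM in control replicates 1 to 3, at 5.23, 4.38 and 4.88 in Ako-3 and at 4.83, 5.20 and 5.90 in Mko-3. BLM, the helicase mutated in Bloom syndrome, lay above control in every library of both clones. On the log2 scale its change was 0.69 ± 0.15 (adjusted p = 0.0021) in Ako-3 and 0.82 ± 0.15 (adjusted p = 6.6e-04) in Mko-3 by edgeR with Benjamini-Hochberg adjustment, and both calls held in every alternative. MUS81 stood at 6.35, 6.47 and 5.66 FPKM in control replicates 1 to 3, at 5.37, 5.37 and 4.73 in Ako-3 and at 4.89, 4.28 and 4.67 in Mko-3. MUS81, the nuclease that cuts stalled forks and joint molecules with EME1, lay below control in every library of both clones. The change was -0.26 ± 0.09 (adjusted p = 0.018) in Ako-3 and -0.43 ± 0.09 (adjusted p = 3.9e-04) in Mko-3 on the log2 scale by edgeR with Benjamini-Hochberg adjustment, and the call in Ako-3 was lost by DESeq2 and without Ako-3 replicate 3. CFL1, on the opposite strand, shares 46.6% of the span of MUS81 and had 5046 to 9355 counts.

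SLX4, the scaffold that holds several such nucleases, averaged 3.08 ± 0.48 FPKM in control, 4.11 ± 0.46 in Ako-3 and 3.76 ± 0.20 in Mko-3 cells (SD, n = 3), with log2 fold changes of 0.42 and 0.28. The call in Mko-3 was lost by limma and without control replicate 1, where the value was 0.18, or without control replicate 3, Mko-3 replicate 1 or Mko-3 replicate 3. EME1 stood at 2.84, 5.51 and 3.92 FPKM in the control libraries, and at 4.12 to 5.31 in the 6 knockout libraries. LRRC59, on the opposite strand, shares 77.7% of its span.

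Among the 4 checkpoint kinases ATM fell and ATR rose in both clones, and CHEK1 and CHEK2 did not pass against control. ATM stood at 2.62, 2.78 and 3.07 FPKM in control replicates 1 to 3, at 2.31, 2.07 and 1.99 in Ako-3 and at 2.33, 2.55 and 2.42 in Mko-3. ATM lay below control in every library of both clones. By edgeR with Benjamini-Hochberg adjustment its log2 fold change was -0.42 ± 0.08 (adjusted p = 2.2e-04) in Ako-3, -0.23 ± 0.08 (adjusted p = 0.015) in Mko-3 and 0.19 ± 0.06 (adjusted p = 0.01) between the clones. The call in Ako-3 held in every alternative, that in Mko-3 was lost by limma and without control replicate 3, Mko-3 replicate 1 or Mko-3 replicate 3, and that between the clones by limma and without Ako-3 replicate 2, Ako-3 replicate 3 or Mko-3 replicate 2. ATR stood at 1.81, 2.56 and 2.40 FPKM in control replicates 1 to 3, at 2.72, 2.73 and 2.95 in Ako-3 and at 3.16, 3.47 and 3.15 in Mko-3. ATR, which responds to single-stranded DNA at stalled forks, lay above control in every library of both clones. Its log2 fold change was 0.31 ± 0.11 (adjusted p = 0.019) in Ako-3, 0.52 ± 0.11 (adjusted p = 3.3e-04) in Mko-3 and 0.21 ± 0.07 (adjusted p = 0.011) between the clones by edgeR with Benjamini-Hochberg adjustment. The call in Ako-3 was lost by limma and without control replicate 1, where the value was 0.17, or Ako-3 replicate 3, and the call between the clones by limma, in the fit of all 9 libraries and without Mko-3 replicate 2.

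CHEK1, the kinase activated by ATR, averaged 6.85 ± 0.95 FPKM in control, 7.22 ± 0.14 in Ako-3 and 7.74 ± 0.23 in Mko-3 cells (SD, n = 3), and the groups overlapped with control. CHEK2, activated by ATM, averaged 6.38 ± 0.16, 7.19 ± 0.64 and 6.08 ± 0.35 FPKM, and its Ako-3 libraries lay above all control and all Mko-3 libraries. Between the clones it was lower in Mko-3, with a log2 difference of -0.25 ± 0.08 (adjusted p = 0.007) by edgeR with Benjamini-Hochberg adjustment, and this call was lost without Ako-3 replicate 3.

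**Figure D4:**
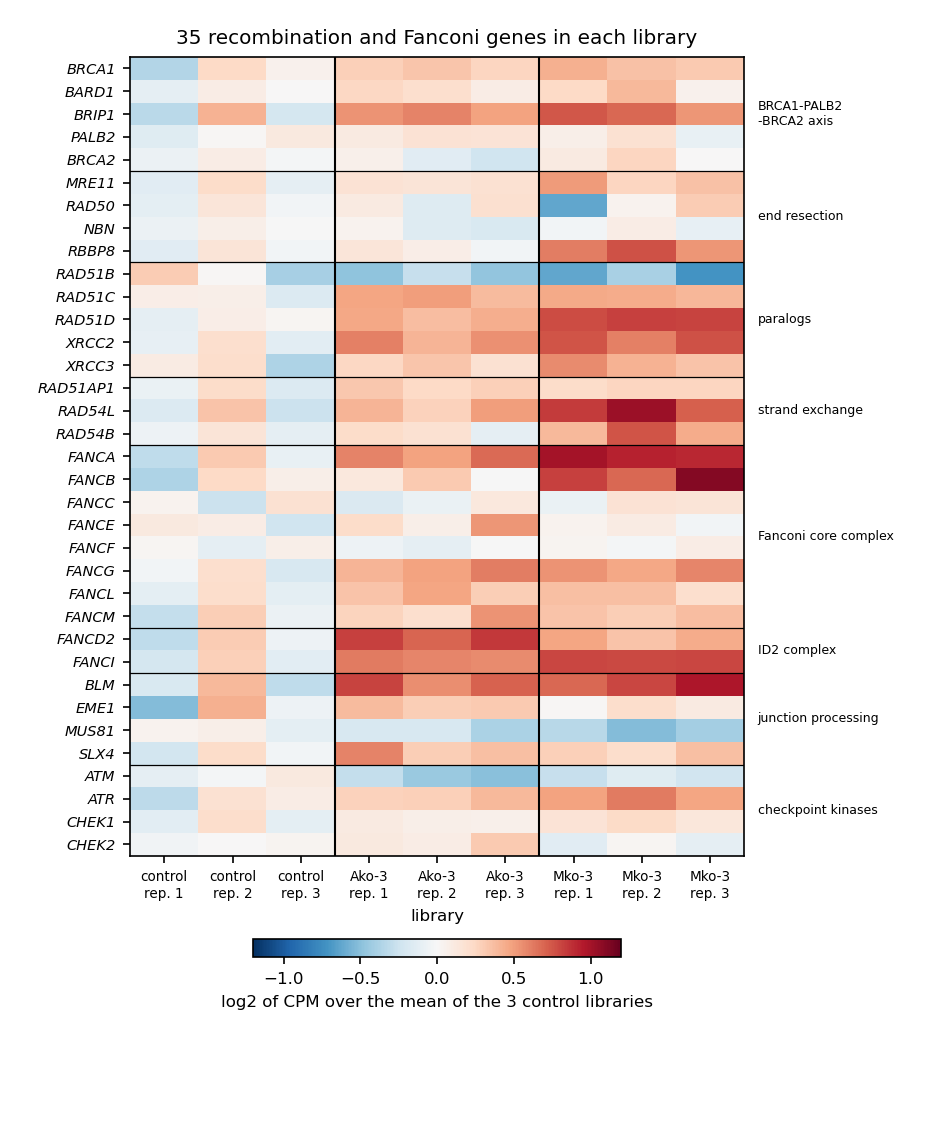
Each cell gives the log2 of a gene's TMM-scaled CPM over the mean of the 3 control libraries, for 35 genes in rows grouped by role and 9 libraries in columns, red for higher and blue for lower. Control replicate 2 is the reddest control column, being the highest control library for 27 genes, FANCD2 and BLM are the reddest by log2 fold change in Ako-3 and FANCA, FANCB, RAD54L and BLM in Mko-3, and ATM and MUS81 are blue in both clones.

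Compared directly, which does not use the control libraries, 10 of the 35 genes were higher in Mko-3 than in Ako-3 and 2 were lower at an adjusted p of at most 0.05 by edgeR, where 21.1% and 20.6% of the 15528 genes tested were. None passed the stricter rule by edgeR, DESeq2 or limma, where 2.26% of all genes were higher and 3.47% lower. By edgeR 16 of the 35 had an unadjusted p under 0.05, and the share of all genes at that p was not counted. The median log2 difference of the 35 was 0.09 and that of all genes tested 0.00. The higher genes were ATR, FANCA, FANCI, RAD51D and RAD54L, which had risen in both clones, FANCB, MRE11, RAD54B and RBBP8, which had passed in Mko-3 alone, and ATM, which had fallen in both. The lower ones were FANCD2 and CHEK2. Every Mko-3 library lay above every Ako-3 library for 13 of the 35 and below for 3, where 25.6% and 24.1% of all genes did so. RBBP8, RAD51D, RAD54L, FANCA, FANCB and FANCD2 passed in every alternative.

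The further genes of recombination and the Fanconi pathway, 53 of them tested, included larger changes. In Ako-3 27 rose and 3 fell, with a median of 0.32, where 25.5% of all genes tested rose and 24.4% fell. In Mko-3 25 rose and 2 fell, with a median of 0.23, where 26.9% and 27.1% of all genes did. By the stricter rule EXO1 and CLSPN rose in both clones and DNA2, PSMC3IP, RFWD3 and BRCC3 rose in Mko-3. That is 3.77% of the list in Ako-3 and 11.3% in Mko-3, against 3.52% and 3.82% of all genes tested. EXO1, the nuclease of long-range resection, had 3.41, 5.50 and 3.78 FPKM in control replicates 1 to 3, 9.03, 9.18 and 9.54 in Ako-3 and 8.59, 9.22 and 10.1 in Mko-3. Its libraries did not overlap with control, and its log2 fold change was 1.14 ± 0.13 (adjusted p = 6.2e-06) and 1.13 ± 0.14 (adjusted p = 1.0e-05) by edgeR with Benjamini-Hochberg adjustment. CLSPN, the adaptor through which ATR activates CHEK1, had 0.698, 1.45 and 0.974 FPKM in control replicates 1 to 3, 2.94, 2.63 and 3.62 in Ako-3 and 4.28, 4.82 and 4.38 in Mko-3. Its log2 fold change was 1.57 ± 0.21 (adjusted p = 3.6e-05) and 2.12 ± 0.18 (adjusted p = 1.1e-07) by edgeR with Benjamini-Hochberg adjustment, larger than that of any of the 35 in either clone. DNA2, the nuclease of the other route of long-range resection, stood at 0.74 in Ako-3 and 1.06 in Mko-3, PSMC3IP, which aids strand exchange, at 0.95 and 1.05, RFWD3, the ubiquitin ligase of the pathway, at 0.78 and 1.15, and BRCC3, a deubiquitylase of the BRCA1-A complex, at 0.85 and 1.00.

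End joining, the other route of break repair, gave 8 genes that rose and 5 that fell of 20 tested in Ako-3, with a median of 0.12, and 7 and 5 of 20 in Mko-3, with a median of 0.11. In Ako-3 40% of the list rose and 25% fell, against 25.5% and 24.4% of all genes tested. In Mko-3 35% rose and 25% fell, against 26.9% and 27.1%. POLQ, the polymerase of the alternative route that acts on resected ends, rose by 0.85 in Ako-3 and 0.86 in Mko-3, and XRCC6 and XRCC5, which together form Ku, by 0.46 and 0.51 in Ako-3 and 0.39 and 0.69 in Mko-3. TP53BP1, which limits resection, rose by 0.60 and 0.84. By the stricter rule no gene of this list rose in either clone and 1 fell in Ako-3, APLF, a Ku-binding scaffold named after its values were seen. It stood at -1.06 in Ako-3 and -0.65 in Mko-3, from 51 to 85 counts in control, 24 to 43 in Ako-3 and 38 to 42 in Mko-3 libraries. This 1 gene is 5.0% of the list, and 5.0% of all genes tested fell by that rule in Ako-3.

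The genes of DNA replication and of entry into S phase had larger medians than the 35. For the counts that follow, 25.5% of all genes tested rose and 24.4% fell in Ako-3, and 26.9% and 27.1% in Mko-3. By the stricter rule 3.52% of all genes rose in Ako-3 and 3.82% in Mko-3. Of 44 replication fork genes 37 rose and 2 fell in Ako-3, 18 of them by the stricter rule, with a median of 0.76, and 39 rose and 3 fell in Mko-3, 20 by the stricter rule, with a median of 0.83. GINS2, of the replicative helicase, stood at 1.60 and 1.61, and LIG1, the ligase of Okazaki fragments, at 1.17 and 1.05. Of 34 further G1/S genes 29 rose and 1 fell in Ako-3 and 28 rose and none fell in Mko-3, with medians of 0.73 and 0.79. SLBP, which processes histone mRNA, stood at 1.13 and 1.35, CDC25A, the phosphatase of S phase entry, at 1.21 and 1.43, and SKP2, which marks CDK inhibitors for degradation, at 0.71 and 0.69. Of 40 mitosis genes 23 rose and none fell in Ako-3 and 24 rose and 3 fell in Mko-3, with medians of 0.24 and 0.25 and none past the stricter rule, while FOXM1, a factor of these genes, stood at 0.75 and 0.67, BIRC5 at 0.62 and 0.51, and CCNB1 at 0.35 and 0.49. Of the p53 targets 3 rose and 13 fell of 22 tested in Ako-3, and 4 rose and 12 fell of 23 in Mko-3, with medians of -0.35 and -0.24. GDF15, a secreted stress factor, stood at -1.81 and -0.55, PMAIP1 and BBC3, which promote cell death, at -2.04 and -1.26 in Ako-3 and -1.59 and -1.73 in Mko-3, and GADD45A, a growth arrest gene, at -1.33 and -1.21.

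The replication fork, G1/S, mitosis, further recombination and Fanconi, and end joining genes all had the same order among the control libraries as the 35 genes. Relative to the mean of the 3 control libraries, the median log2 level of the 35 was -0.12, 0.20 and -0.07 in control replicates 1 to 3, that of the replication fork genes -0.20, 0.32 and -0.16, that of the G1/S genes -0.14, 0.25 and -0.12 and that of the mitosis genes -0.11, 0.18 and -0.09. In the Ako-3 libraries these medians were 0.24 to 0.29, 0.77 to 0.83, 0.70 to 0.76 and 0.27 to 0.29, and in the Mko-3 libraries 0.34 to 0.36, 0.76 to 0.84, 0.74 to 0.84 and 0.22 to 0.28. Control replicate 2 was the highest control library in each of these lists and lay below all knockout libraries in each. The same held for the further recombination and Fanconi genes, at -0.07, 0.10 and -0.06 in control replicates 1 to 3. Their medians were 0.21 to 0.35 in the Ako-3 libraries and 0.24 to 0.29 in the Mko-3 libraries. The end joining genes stood at -0.05, 0.10 and -0.05 in control replicates 1 to 3. Control replicate 2 lay above 2 of the 3 Mko-3 libraries for this list, which ran from 0.06 to 0.15. The p53 targets had another order, at 0.04, 0.00 and -0.03 in control replicates 1 to 3, with control replicate 1 the highest. In separate cultures, the paper reports growth of the Ako clones at rates similar to control cells. It also cites earlier work in which MTTP loss had no significant effect on growth. The share of cells in S phase was not measured in these libraries, and its part in the changes of the 35 genes was not tested.

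**Figure D5:**
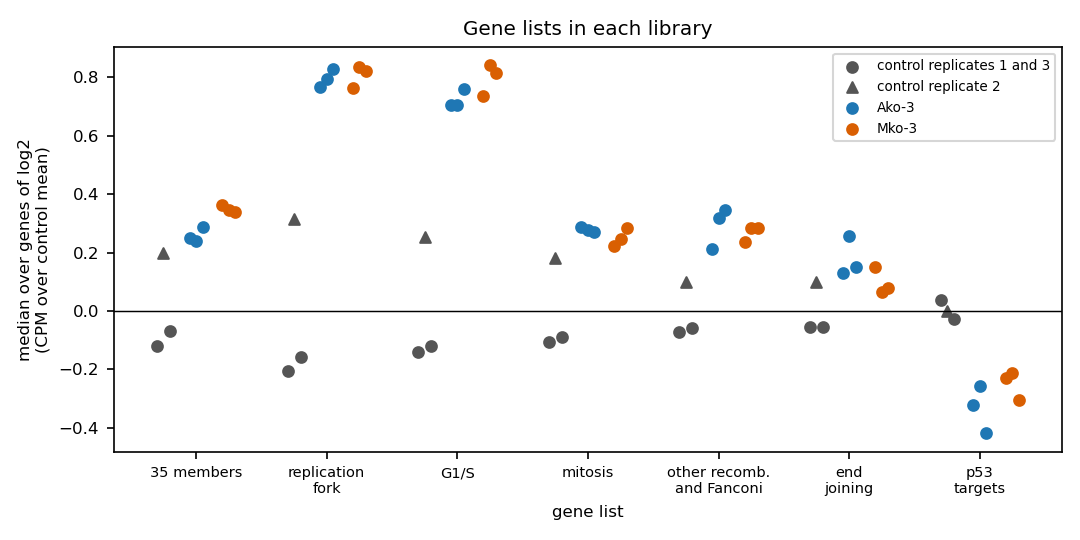
For each gene list, the median over its genes of the log2 CPM relative to the mean of the control libraries is plotted for each of the 9 libraries, grey for control, blue for Ako-3 and orange for Mko-3, with control replicate 2 as a triangle. The 35 genes sit at 0.24 to 0.36 in the knockout libraries and the replication fork genes at 0.76 to 0.84. Control replicate 2 lies between the other control libraries and the clones in all lists except the end joining genes and the p53 targets.

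The 35 genes were also set beside the genes around them on the chromosomes. The median log2 fold change of the genes tested within 5 Mb of each ran from -0.25 to 0.24 in Ako-3 and from -0.18 to 0.23 in Mko-3. In these comparisons 31 and 29 of the 35 genes lay above the median of their neighbours, and between the clones 21 did. This count was not made for all genes. It stands close to the number with a log2 fold change above 0, which was 28 of the 35 in Ako-3 and 29 in Mko-3. Near ATM and MUS81, which fell, the medians were 0.02 and 0.09 in Ako-3 and 0.05 and 0.07 in Mko-3.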

How the data were processed

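Messenger RNA of Huh-7 control, Ako-3 and Mko-3 cells was sequenced in 3 libraries each, selected on poly-T beads, with a second strand made with dTTP, which leaves no strand mark. Per the methods, the authors aligned paired reads to hg38 with HISAT2 2.0.5 and counted them on genes with featureCounts 1.5.0-p3. The labels name an older genome build beside hg38, and hg38 was used here. They deposited raw counts and FPKM values, the counts divided by gene length and a library size. How reads in more than 1 gene were treated is not given in the sources used here. Total counts ran from 14638727 to 20179760, and low counts have wide errors.

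Counts were tested with edgeR 4.0.16 in R 4.3.3 (TMM scaling, a filterByExpr minimum of 10 counts and the quasi-likelihood F test with robust dispersions), in a fit of 6 libraries per comparison over all genes, with Benjamini-Hochberg adjustment. Genes were called at an adjusted p of at most 0.05, or by the stricter rule, as the study does, which also asks for a log2 change of 1 or more in either direction. The standard error was the size of the log2 fold change over the square root of F. The study names DESeq2, and DESeq2 1.42.0 and limma 3.58.1 (log2 of FPKM plus 1 or 0.1) were alternatives, with other scaling, filters, a replicate term and leaving out each library. The scripts were tested on simulated data. P values measure the spread between these libraries, which were labelled biological replicates, and no 2 libraries agreed within sampling noise.

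The 35 genes and all lists (further recombination and Fanconi genes, end joining, replication fork, G1/S, mitosis, p53 targets and cell type markers) were chosen with earlier results of these data known. Values per library are given for the 2 genes of each role with the smallest adjusted p over the comparisons. Of the further recombination genes those past the stricter rule are named, and of other lists the 2 with the smallest adjusted p in each knockout. Promoters came from RefSeq (GRCh38.p14), 1 per gene, nearest to the start in the deposited files. The files' gene positions overlapped the GENCODE annotation of hg38 for all 35 genes. The RNA, protein and lipid assays of the study other than sequencing were not analysed here. A gene of recombination is not reported here.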

Additional observations from a re-analysis of the deposited data

Results flagged for a closer look

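The test of the difference between the clones itself picked out 12 of the 35 genes (edgeR with Benjamini-Hochberg adjustment), given here as log2 differences of Mko-3 over Ako-3 with 3 libraries each. Among the resection genes these were RBBP8 (0.57) and MRE11 (0.21), and among the genes of strand pairing and exchange they were RAD51D (0.38), RAD54L (0.47) and RAD54B (0.43). Of the Fanconi genes, FANCB (0.72), FANCA (0.36) and FANCI (0.20) were higher in Mko-3 and FANCD2 (-0.37) was lower. Of the kinases, ATR (0.21) and ATM (0.19) were higher and CHEK2 (-0.25) was lower. The libraries of the clones did not overlap for any of the 12. Each knockout was 1 clone, so these differences and those between any 2 clones of the line cannot be told apart.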

How the results depend on the processing

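Of 1470 fold changes of single genes under the alternatives, 1359 kept their side of the threshold, 84 no longer passed and 27 came to pass. The sign changed in 26 of the 1359, none of which passed, and in none of the calls. In every alternative 10 of the 17 calls in Ako-3 held, 15 of the 23 in Mko-3 and 6 of the 12 between the clones. With DESeq2, 1 of the 35 fell in Ako-3 in place of 2, where 17.8% of all genes fell. With limma, at either pseudocount, 1 fell in Mko-3 in place of 3, where 24.8% of all genes fell. Between the clones 6 in place of 10 were higher with limma, where 18.5% and 18.4% of all genes were at the 2 pseudocounts. The cause of these lower counts was not tested. When 1 library was left out, genes that fell numbered 1 to 3 in Ako-3 and 1 to 3 in Mko-3, genes that rose by the stricter rule in Mko-3 0 to 4, and the medians ran from 0.15 to 0.36 in Ako-3, 0.21 to 0.47 in Mko-3 and 0.0628 to 0.0978 between the clones. Genes that rose numbered 10 to 20 in Ako-3 and 16 to 24 in Mko-3, with the highest counts without control replicate 2. Of all genes tested, 21.0% to 26.2% rose in Ako-3 and 23.0% to 28.5% in Mko-3 in these fits, and 19.4% to 25.2% and 22.1% to 27.4% fell. The replicate numbers did not pair the samples: correlations of same-numbered deviations ran from -0.07 to 0.06, and 0, 3 and 3 of 6 libraries correlated best with their own number in the 3 comparisons. With a replicate block 16 genes rose and 2 fell in Ako-3, 21 and 3 in Mko-3, and 11 were higher and 2 lower between the clones. Of all genes tested, 24.0% rose and 22.8% fell in Ako-3 in that fit, 27.2% and 27.2% in Mko-3, and 21.6% were higher and 21.0% lower between the clones. At 26 to 96 counts per library, RAD50, FANCB and RAD51B had the largest standard errors.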

Other observations

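NHEJ1, a factor of end joining, had 0 to 5 counts in each of the 9 libraries, and 99.99% of its span is shared with AC068946.1, a gene annotated on the same strand that had 0 to 1 counts. RAD51D, with 99.9% of its span shared, had 319 to 614 counts. How the counting treated reads in shared exons was not tested, and the low counts of NHEJ1 are not read as absence of its RNA.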
